A study of Mus musculus with 6 samples.

Results

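Platelet-derived growth factors (PDGFs) and their receptors were followed in a mouse melanoma line with reduced Ndufs4. The 6 genes are the ligand genes Pdgfa, Pdgfb, Pdgfc and Pdgfd and the receptor genes Pdgfra and Pdgfrb, found by symbol among 22535 gene rows. All 6 had a row. They were chosen by their difference between the sgNDUFS4 and sgControl libraries described here, so their levels and differences are given as a description, without a test. RNA sequencing without strand was done on polyadenylated RNA of B16-BL6, a melanoma line derived from the mouse B16 tumour and known for invasive growth, in 3 libraries labelled sgNDUFS4 and 3 labelled sgControl. The first carry a guide RNA against Ndufs4, which encodes a subunit of respiratory complex I, and the second a control guide. Both grew in the same medium, DMEM with serum and added pyruvate. The labels do not say whether either line is 1 clone or a pool, or whether the replicates were separate cultures, and p-values below therefore reflect library-to-library spread that could be technical.

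PDGF chains are secreted as dimers that bring together pairs of receptor tyrosine kinases on the target cell. PDGF-A, PDGF-B and PDGF-C bind PDGF receptor alpha, and PDGF-B and PDGF-D bind PDGF receptor beta. The chains A and B are cleaved inside the cell by furin-like proteases, whereas C and D leave the cell as latent forms with a CUB domain that extracellular proteases must remove. In tumours, PDGF made by cancer cells is best known for acting on fibroblasts and pericytes, the mural cells of small vessels.

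Promoter sequences are shown for Pdgfc and Pdgfd, the 2 CUB-domain ligand genes, which both had few or no reads in sgControl and more in sgNDUFS4. They are the 250 bases before the RefSeq start on GRCm38.p6, plus strand, at chr3:81036166-81036415 for Pdgfc and at chr9:6168236-6168485 for Pdgfd. Capitals mark CpG dinucleotides and a TATAAA match.
Pdgfc: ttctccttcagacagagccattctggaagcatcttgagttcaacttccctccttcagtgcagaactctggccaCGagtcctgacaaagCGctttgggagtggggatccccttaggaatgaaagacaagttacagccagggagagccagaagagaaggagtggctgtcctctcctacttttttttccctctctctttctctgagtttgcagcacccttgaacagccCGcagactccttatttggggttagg
Pdgfd: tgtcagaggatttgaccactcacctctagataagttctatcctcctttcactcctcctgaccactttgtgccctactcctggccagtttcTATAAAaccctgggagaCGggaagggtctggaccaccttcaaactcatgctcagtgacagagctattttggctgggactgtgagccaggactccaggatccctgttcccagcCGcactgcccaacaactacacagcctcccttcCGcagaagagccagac

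Each of these windows holds 3 CpG dinucleotides, and 29.0% of 32851 RefSeq promoter windows of this length hold fewer. The TATA box motif TATAAA lies 160 bases before the start in Pdgfd, and 12.4% of all windows hold it on either strand. The SP1 motif GGGCGG, the EGR1 motif GCGNGGGCG, the CCAAT box and the AP-1 motif TGANTCA, searched on both strands, had no match in either window. They occur in 32.7%, 4.70%, 33.8% and 6.75% of all windows. Pdgfa has 2 RefSeq starts, with 19 and 28 CpG dinucleotides in the 250 bases before them and 1 and 2 matches to GGGCGG. Both of these windows overlap Pdgfa exons annotated in GENCODE M21. The window with 28 CpG dinucleotides also overlaps an exon of the antisense gene 6330403L08Rik. Pdgfra has 4 CpG dinucleotides and no match to any of the motifs searched. A match or its absence describes these letters and no binding.

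Gene-assigned reads numbered from 20090607 to 25947374 per library. Ndufs4 was at 15.9 ± 0.927 CPM (gene reads scaled to the library total) in sgNDUFS4, against 53.9 ± 1.37 CPM in sgControl (SD, n = 3 each). Markers of pigment cells were abundant in every library. The 7 melanocytic markers summed to between 14508 and 15533 CPM in sgNDUFS4 and between 15409 and 15927 CPM in sgControl, led by Tyrp1, Pmel and Dct. With limma, 3514 of the 11063 tested genes were higher and 2241 lower in sgNDUFS4, 52.0% in all, and TMM scaling gave 2756 higher and 2850 lower. All 7 melanocytic markers passed that test, in both directions. Pmel and Mitf rose, by log2 differences of 0.34 and 0.16, and Dct, Mlana, Tyrp1, Sox10 and Tyr fell. Tyr, the tyrosinase of pigment synthesis, was at 3.10 ± 0.436 CPM in sgNDUFS4 and 32.3 ± 1.57 CPM in sgControl (SD, n = 3 each, log2 difference -3.19, limma adjusted p = 5.3e-17). Mitf did not pass with TMM scaling (adjusted p = 0.068) or after centring on neighbouring genes, where Tyrp1 did not pass either and Sox10 was higher, at a log2 difference of 0.11 in place of -0.12. Mitf, Mlana, Sox10 and Tyr were named after their values were seen.

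Across the 4 ligand genes, Pdgfa, Pdgfc and Pdgfd were higher in sgNDUFS4 and Pdgfb was lower. Both receptor genes were higher in sgNDUFS4. The 2 groups did not overlap for any of the 6 genes, 5 of them higher and 1 lower in sgNDUFS4. Among all 13513 rows with a read, 30.0% had all sgNDUFS4 libraries above all sgControl libraries and 2700 rows had them all below. Among the genes tested these shares were 35.0% and 22.2%, or 57.2% in either direction. Since the genes were chosen with these values in view, nothing is read from that count. The median log2 difference of the 6 genes was 0.69, beside 0.06 over all genes tested, and nothing is read from that gap either. The 6 include Pdgfb and Pdgfd, whose means were under the 1 CPM needed for testing. Differences are on the log2(CPM + 0.5) scale, sgNDUFS4 minus sgControl, which understates the change of low genes.

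Pdgfc, a latent ligand of receptor alpha, had the largest ratio among the 6. It had 1.86, 2.89 and 3.55 CPM in the sgNDUFS4 libraries, against 0.149, 0.00 and 0.0449 CPM in the sgControl libraries. These are 48, 69 and 92 reads in sgNDUFS4, against 3, 0 and 1 in sgControl. Every sgNDUFS4 library was above every sgControl library, and the sgControl libraries held at most 3 reads. Summed over libraries, the reads gave a ratio of 45.6 with an exact 95% interval of 17.5 to 168.9, which covers counting error only. Within sgNDUFS4, the exact Poisson intervals of replicate 1 (1.37 to 2.47 CPM) and replicate 3 (2.86 to 4.35 CPM) did not meet, so these libraries differed by more than counting error. The log2 difference was 2.504 (limma SE 0.31). Pdgfc passed the filter of a mean of at least 1 CPM only through its sgNDUFS4 libraries. The antisense gene Gm16000, not analysed here, shares 2.89% of its merged exons.

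Pdgfd, the latent ligand of receptor beta, was at the edge of detection. It had 0.620, 0.627 and 0.462 CPM in sgNDUFS4, against 0.00, 0.127 and 0.224 CPM in sgControl. The read numbers were 16, 15 and 12 in sgNDUFS4, against 0, 3 and 5 in sgControl. All sgNDUFS4 libraries lay above the highest sgControl library, although the exact Poisson intervals of single libraries met. The summed reads gave a ratio of 4.69 (exact 95% interval 2.18 to 11.5, counting error only). Pdgfd did not pass the filter, and its log2 difference of 0.81 has no limma standard error.

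Pdgfa, whose product binds receptor alpha, was the most abundant ligand mRNA. It had 16.8, 16.6 and 14.2 CPM in sgNDUFS4, against 8.06, 10.5 and 9.79 CPM in sgControl. The lowest sgNDUFS4 library was above the highest sgControl library. The means were 15.9 ± 1.48 CPM in sgNDUFS4 and 9.44 ± 1.246 CPM in sgControl (SD, n = 3 each), a ratio of 1.68 and a log2 difference of 0.72 (limma SE 0.12). An antisense gene, 6330403L08Rik, shares 813 bases, or 26.1%, of the merged Pdgfa exons in GENCODE M21. Without strand, reads from the antisense gene cannot be told apart there from reads of Pdgfa, and the antisense gene was not analysed here.

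Pdgfb, whose product binds both receptors, was the 1 gene of the 6 that was lower in sgNDUFS4. It had 2, 1 and 1 reads in the sgNDUFS4 libraries, against 7, 10 and 7 in the sgControl libraries. In CPM these are 0.0775, 0.0418 and 0.0385 in sgNDUFS4, against 0.348, 0.423 and 0.314 in sgControl. All sgNDUFS4 libraries were under the 3 reads used as a floor, and all sgControl libraries were above it. This floor corresponds to 0.116 to 0.149 CPM in a library. The exact Poisson intervals of single libraries met, such as 0.00938 to 0.280 CPM in sgNDUFS4 replicate 1 and 0.126 to 0.647 CPM in sgControl replicate 3. The summed reads gave a ratio of 0.145 (exact 95% interval 0.0367 to 0.423, counting error only), and the log2 difference was -0.64. Pdgfb did not pass the filter.

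The 4 ligand genes summed to 19.3 ± 0.992 CPM in sgNDUFS4 and 9.99 ± 1.28 CPM in sgControl (SD, n = 3 each), a ratio of 1.93. Pdgfa made up most of the sum in every library.

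Pdgfrb, the gene of receptor beta, was the more abundant receptor mRNA. It had 27.7, 30.5 and 32.3 CPM in sgNDUFS4, against 18.8, 18.4 and 19.6 CPM in sgControl. The groups lay well apart, with means of 30.2 ± 2.30 CPM in sgNDUFS4 and 19.0 ± 0.604 CPM in sgControl (SD, n = 3 each). The ratio was 1.59 and the log2 difference 0.65 (limma SE 0.085). Between 378 and 838 reads per library stand behind these values.

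Pdgfra, the gene of receptor alpha, had 3.41, 3.64 and 3.70 CPM in sgNDUFS4, against 2.74, 2.37 and 2.33 CPM in sgControl. All sgNDUFS4 libraries were above all sgControl libraries, although the counting intervals of single libraries met. The means were 3.58 ± 0.154 CPM in sgNDUFS4 and 2.48 ± 0.224 CPM in sgControl (SD, n = 3 each), a ratio of 1.44 and a log2 difference of 0.46 (limma SE 0.20). Genes on the other strand and a microRNA share 6.50% of its merged exons and were not analysed here. The 2 receptor genes summed to 33.8 ± 2.45 CPM in sgNDUFS4 and 21.4 ± 0.584 CPM in sgControl.

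**Figure D1:**
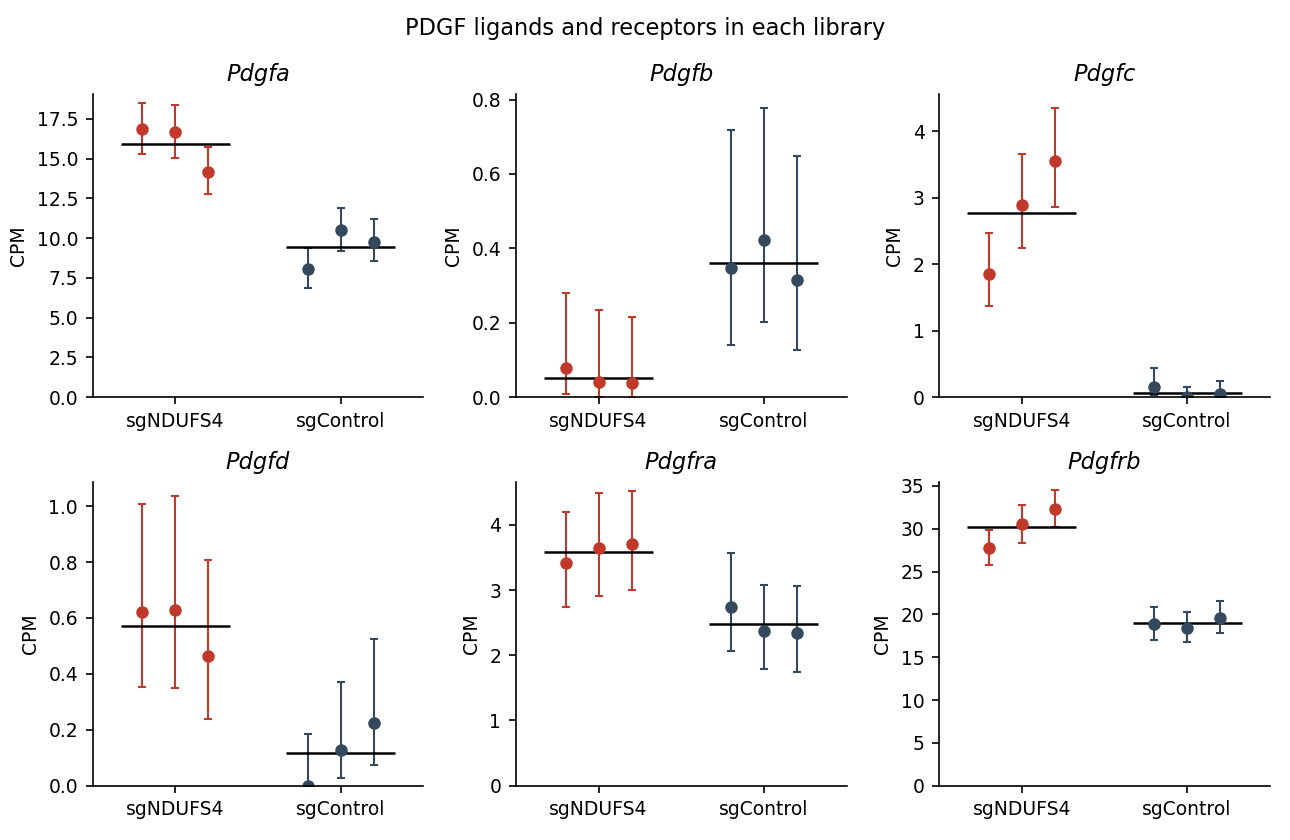
CPM of each PDGF ligand and receptor gene in every library, sgNDUFS4 left and sgControl right; points are libraries with exact 95% Poisson intervals (counting error only) and lines are group means (n = 3 each). The groups do not overlap in any panel, and Pdgfb is the panel in which sgNDUFS4 is lower.

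Levels of different genes were compared per kilobase of merged exons. In sgNDUFS4 the order was Pdgfrb at 5.51 ± 0.419, Pdgfa at 5.10 ± 0.476, Pdgfc at 0.543 ± 0.167, Pdgfra at 0.357 ± 0.0153, Pdgfd at 0.181 ± 0.0295 and Pdgfb at 0.0126 ± 0.00519 CPM per kilobase (SD, n = 3). The libraries overlapped between Pdgfrb and Pdgfa and between Pdgfc and Pdgfra, so the order within these pairs was not larger than the spread. In sgControl the order was Pdgfrb at 3.46 ± 0.110, Pdgfa at 3.03 ± 0.400, Pdgfra at 0.247 ± 0.0223, Pdgfb at 0.0870 ± 0.0133, Pdgfd at 0.0371 ± 0.0357 and Pdgfc at 0.0127 ± 0.0151 CPM per kilobase. Here only Pdgfd and Pdgfc overlapped among neighbours in the order, but other gaps were narrow. The lowest Pdgfrb library was at 3.365 and the highest Pdgfa library at 3.362 CPM per kilobase. In sgControl replicate 3, Pdgfb was at 0.0755 and Pdgfd at 0.0712 CPM per kilobase, from 7 and 5 reads. The lack of overlap therefore does not settle the order of Pdgfrb and Pdgfa or of Pdgfb and Pdgfd. By its mean, Pdgfc thus stood above Pdgfra, Pdgfd and Pdgfb in sgNDUFS4 and last in sgControl. Pdgfb, also by its mean, stood last in sgNDUFS4 and above Pdgfd and Pdgfc in sgControl. With the length of the longest transcript in place of merged exons, Pdgfa came before Pdgfrb in both groups and did not overlap with it. Of the genes tested, 43.7% lay below Pdgfrb per kilobase in sgNDUFS4 and 33.8% in sgControl, so the most abundant of the 6 was itself below the median gene.

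**Figure D2:**
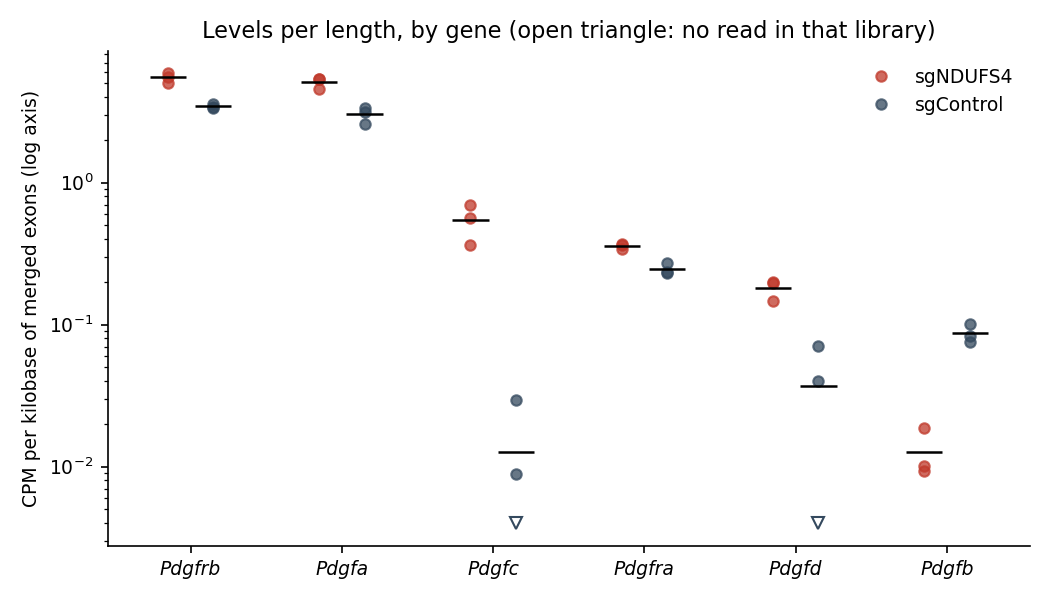
CPM per kilobase of merged exons (log axis) for the 6 genes, sgNDUFS4 left and sgControl right for each gene; points are libraries, lines are means (n = 3 each) and open triangles mark libraries without a read. Pdgfrb and Pdgfa lie above the other 4 genes in both groups, and by the mean Pdgfb is lowest in sgNDUFS4 and Pdgfc in sgControl.

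Earlier results of these data showed shifts shared by neighbouring genes along chromosomes, so each gene was set beside its 50 nearest tested genes. Pdgfc lies on chromosome 3 (81036416 to 81214040, plus strand, GRCm38), where 43 of the 50 neighbours were higher in sgNDUFS4 and their median log2 difference was 0.30. Its difference minus that median was 2.21. Pdgfb lies on chromosome 15 (79995874 to 80014977, minus strand), where 40 of the 50 neighbours were lower and their median was -0.18. Its difference minus the median was -0.46.

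The other neighbourhoods of 50 genes lay closer to the median of all genes. Pdgfa (chromosome 5, 138976014 to 138997370, minus strand) and Pdgfra (chromosome 5, 75152292 to 75198215, plus strand) had neighbour medians of 0.05 each, and remained at 0.68 and 0.40 after subtraction. Pdgfrb (chromosome 18, 61045150 to 61085061, plus strand) had a neighbour median of 0.08 and remained at 0.57. Pdgfd (chromosome 9, 6168584 to 6378850, plus strand) had a neighbour median of 0.11 and remained at 0.70. Of its 20 nearest tested genes 19 were higher, with a median of 0.22, and against these Pdgfd remained at 0.59. No gene of the 6 changed sign against its neighbours, also with 20 or 100 of them. The genes were chosen by these differences, so nothing is read from the kept signs.

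**Figure D3:**
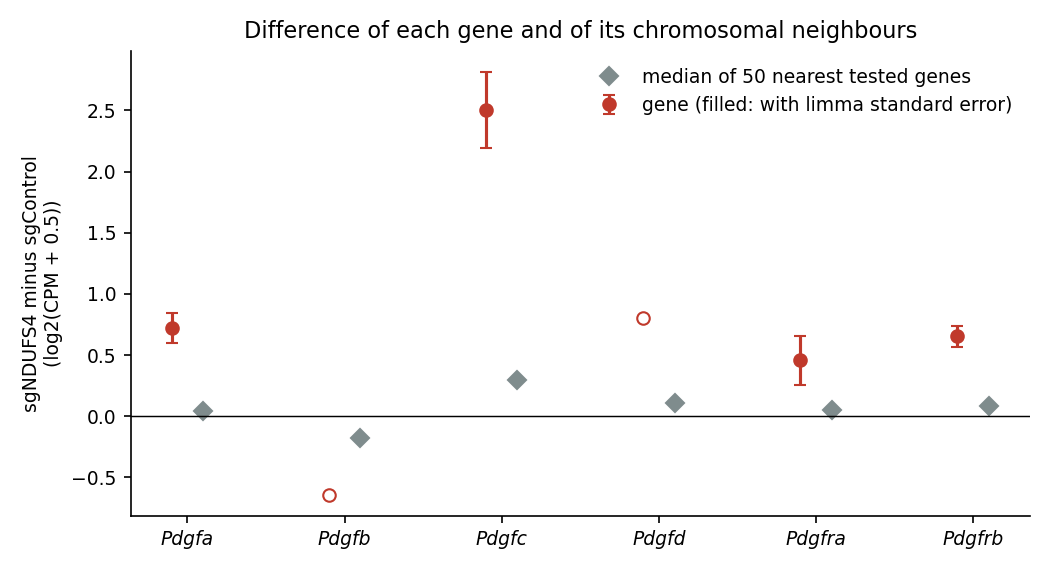
Log2 difference (log2(CPM + 0.5), sgNDUFS4 minus sgControl) of each gene (circles, filled with limma standard error where the gene passed the filter, open where it did not) and the median of its 50 nearest tested genes (diamonds). The neighbour medians lie between -0.18 and 0.30, and each gene lies farther from 0 than the median of its neighbours. Single neighbours are not shown.

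Genes of other cell types that use PDGF receptors were looked at in the same libraries, since fewer cells of a type and less RNA per cell cannot be told apart in bulk samples. Of 8 fibroblast markers, Dcn, Lum, Thy1, Dpt and Fap had no read in any library, and the 8 summed to between 37.8 and 42.4 CPM in sgNDUFS4 and between 39.4 and 41.7 CPM in sgControl. That sum came mostly from Col1a2, at 33.3 ± 2.13 CPM in sgNDUFS4 and 31.5 ± 2.79 CPM in sgControl (SD, n = 3 each). Col1a1 was at 6.96 ± 0.642 CPM in sgNDUFS4 and 9.15 ± 2.11 CPM in sgControl, and Col3a1 had reads in 1 library. Neither collagen I gene passed with limma, where 1 had an unadjusted p under 0.05. Col1a1 was lower with edgeR on the recovered reads (adjusted p = 0.023), with TMM scaling (0.029) and after neighbour centring (0.019).

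Of 8 markers of pericytes and smooth muscle, Rgs5, Myh11 and Abcc9 had no read in any library. The 8 summed to between 179.7 and 203.4 CPM in sgNDUFS4 and between 266.2 and 278.6 CPM in sgControl, most of it from Mcam, which melanoma cells also express. Mcam fell to 183.6 ± 11.4 CPM in sgNDUFS4, against 269.2 ± 7.78 CPM in sgControl (limma adjusted p = 2.5e-11). Acta2, the smooth muscle actin gene, rose to 4.72 ± 0.785 CPM in sgNDUFS4, against 0.286 ± 0.217 CPM in sgControl (limma adjusted p = 4.4e-09). Des was at 2.23 ± 0.692 CPM in sgNDUFS4 and 3.86 ± 2.03 CPM in sgControl and did not pass with limma (adjusted p = 0.076). It was lower with edgeR (0.034), but did not pass with TMM scaling (0.055) or after neighbour centring (0.17). All 5 endothelial markers, Pecam1, Cdh5, Tek, Emcn and Cldn5, had no read in any library. The 6 leukocyte and platelet markers summed to between 4.78 and 13.2 CPM in sgNDUFS4 and between 7.68 and 12.3 CPM in sgControl, led by Lyz2, Cd68 and Adgre1. Of these Cd68 fell (log2 difference -0.81, limma adjusted p = 0.0082), although its groups overlapped. The Cd68 call was lost without sgNDUFS4 replicate 2 or 3 or sgControl replicate 1 or 2, where the highest adjusted p was 0.058. It was also lost without the mean-variance trend of limma. Whether any such cells were present in these libraries of a melanoma line, and any part of theirs in the PDGF values, was not tested.

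Genes that act with PDGF at other steps were taken from 7 lists, 104 genes without the 6 described above. Tested were 84, of which limma called 32 higher and 18 lower, beside 52.0% called, 31.8% higher and 20.3% lower, over all genes tested. The median log2 difference of the 84 was 0.09. After centring each gene on its 50 neighbours, 24 of the 84 were called higher and 22 lower. Over all genes the same centring gave 2381 higher and 2418 lower, out of fewer than the 11063 tested. It left out genes without a mapped position or with too few tested genes on their chromosome.

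Proteases that release PDGF chains and the controls on them came first. Of 11 listed genes 5 were tested, 2 rose and 1 fell. Furin, the protease that cleaves the A and B chains, fell to 53.5 ± 3.15 CPM in sgNDUFS4, against 67.3 ± 4.54 CPM in sgControl (SD, n = 3 each, log2 difference -0.33, limma adjusted p = 7.0e-05). Plat, the tissue plasminogen activator that activates PDGF-C, was at 1.90, 2.17 and 2.004 CPM in sgNDUFS4, against 2.59, 2.83 and 2.51 CPM in sgControl, and did not pass (adjusted p = 0.23). Plaur, the receptor of urokinase, rose to 27.7 ± 0.853 CPM in sgNDUFS4, against 17.6 ± 0.476 CPM in sgControl (adjusted p = 5.9e-07). Pcsk7, another furin-like protease, was at 32.3 ± 1.69 CPM in sgNDUFS4 and 29.1 ± 1.45 CPM in sgControl and did not pass (adjusted p = 0.11). Plau, the urokinase that activates PDGF-D, had 0.658 CPM in sgNDUFS4 replicate 1 and no read in the other sgNDUFS4 libraries, against 0.398, 0.972 and 0.628 CPM in sgControl, and was not tested. St14, another activator of PDGF-D, and Pcsk5, Pcsk6 and Plg had no read in any library. Plat, Plau and the genes without reads were named after their values were seen.

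Among co-receptors and proteins that bind PDGF, all 7 tested of 8 listed passed, 4 higher and 3 lower. Thbs1, the matrix glycoprotein thrombospondin, rose to 74.2 ± 4.45 CPM in sgNDUFS4, against 21.2 ± 4.59 CPM in sgControl (log2 difference 1.81, limma adjusted p = 4.0e-14). Lrp1, an endocytic receptor that associates with PDGF receptor beta, rose to 358.1 ± 7.79 CPM in sgNDUFS4, against 239.7 ± 3.42 CPM in sgControl (log2 difference 0.58, adjusted p = 1.4e-13). The neuropilin genes Nrp1 and Nrp2 rose by log2 differences of 0.43 and 0.21. Cspg4, the proteoglycan NG2 that binds PDGF-AA, had 2.21, 1.88 and 2.004 CPM in sgNDUFS4, against 12.2, 8.75 and 10.6 CPM in sgControl. It fell by 2.11 on the log2 scale (limma adjusted p = 1.4e-10). Sparc, a matrix protein that binds PDGF-B, fell to 761.2 ± 45.0 CPM in sgNDUFS4, against 1198 ± 54.9 CPM in sgControl (log2 difference -0.65, adjusted p = 4.1e-14). Hspg2, the proteoglycan perlecan, fell by 0.41 on the log2 scale, and was at -0.23 after neighbour centring. Nrp1, Nrp2 and Hspg2 were named after their values were seen.

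The 37 adaptors and effectors that signal from the receptors were all tested. In sgNDUFS4 17 rose and 6 fell, 14 did not pass, and their median log2 difference was 0.14. Rasa1, the Ras GTPase-activating protein that binds activated receptor beta, rose to 70.2 ± 1.52 CPM in sgNDUFS4, against 42.0 ± 2.63 CPM in sgControl (log2 difference 0.74, limma adjusted p = 1.3e-10). Shc1, an adaptor that links receptors to Ras, rose to 172.3 ± 4.92 CPM in sgNDUFS4, against 123.4 ± 7.22 CPM in sgControl (log2 difference 0.48, adjusted p = 1.4e-09). After neighbour centring Rasa1 and Shc1 were at 0.31 and 0.14. Akt1, a kinase downstream of phosphoinositide 3-kinase, fell to 1085 ± 31.2 CPM in sgNDUFS4, against 1592 ± 22.8 CPM in sgControl (log2 difference -0.55, adjusted p = 3.0e-15). Map2k2, a kinase of the MAPK cascade, fell to 235.0 ± 7.44 CPM in sgNDUFS4, against 306.5 ± 12.3 CPM in sgControl (log2 difference -0.38, adjusted p = 3.2e-09). The tyrosine kinase gene Abl1 was at 173.5 ± 1.98 CPM in sgNDUFS4 and 162.1 ± 8.91 CPM in sgControl and did not pass (adjusted p = 0.050). It was higher after neighbour centring (adjusted p = 0.012), but was far from passing with TMM scaling (0.45) or edgeR (0.47). TMM scaling gave 13 higher and 6 lower in this list, and neighbour centring 12 and 6.

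Of 16 tested genes that restrain receptor signalling, 3 rose and 4 fell, and 9 did not pass. Spry1, a feedback inhibitor of the MAPK cascade, rose to 12.5 ± 0.967 CPM in sgNDUFS4, against 7.34 ± 1.13 CPM in sgControl (log2 difference 0.74, limma adjusted p = 4.4e-05). Its relative Spry2 and the tyrosine phosphatase gene Ptpn2 also rose, by log2 differences of 0.28 and 0.25. Among those that fell were the tyrosine phosphatase genes Ptprj, Ptpn1 and Ptpn6, by 0.39, 0.27 and 0.32 on the log2 scale. Slc9a3r1, a scaffold that binds receptor beta, was at 83.0 ± 4.85 CPM in sgNDUFS4 and 81.1 ± 1.28 CPM in sgControl and did not pass. The Ptpn6 groups overlapped. Without sgNDUFS4 replicate 2 or sgControl replicate 2 only 2 genes of this list fell. Ptpn6 was also lost without sgNDUFS4 replicate 1 or sgControl replicate 3, and Spry2 without sgNDUFS4 replicate 1. After neighbour centring 1 gene was higher and 6 were lower. Spry1 was the higher one, at a log2 difference of 0.34 (adjusted p = 0.041), and Ptpn2 (0.14, adjusted p = 0.095) and Spry2 (0.11, adjusted p = 0.35) did not pass. Ptpn1 was then at -0.17. Spry2 and Ptpn6 were named after their values were seen.

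Genes that PDGF induces in mouse fibroblasts moved in both directions. Of 13 tested of 16 listed, Junb, Myo1e, Arid5b, Sgpl1 and Myc rose and Ier3, Cxcl1 and Has2 fell, and the median log2 difference was 0.00. Junb, an AP-1 transcription factor, rose to 36.8 ± 0.659 CPM in sgNDUFS4, against 23.7 ± 3.07 CPM in sgControl (log2 difference 0.63, limma adjusted p = 6.7e-07). The myosin gene Myo1e, the DNA-binding protein gene Arid5b and the sphingolipid enzyme gene Sgpl1 rose by log2 differences of 0.44, 0.83 and 0.34. Neighbour centring gave 4 higher and 5 lower in this list, with Sgpl1 not passing at a difference of 0.09. Tiparp was at 65.4 ± 2.21 CPM in sgNDUFS4 and 70.7 ± 4.85 CPM in sgControl and did not pass (log2 difference -0.11, adjusted p = 0.11). It was lower with TMM scaling (adjusted p = 0.017), with edgeR (0.015) and DESeq2, and after neighbour centring, at a log2 difference of -0.45 (adjusted p = 2.1e-06). Has2, the hyaluronan synthase gene, had 0.271, 0.251 and 0.308 CPM in sgNDUFS4, against 3.29, 2.24 and 0.224 CPM in sgControl, so the groups overlapped. Its call was lost without sgControl replicate 1 or 2, where the highest adjusted p was 0.13. Myc, Ier3, Cxcl1 and Has2 were named after their values were seen.

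The relatives of PDGF were set beside it. Of the VEGF ligand and receptor genes, Vegfa, Vegfb and Vegfc were tested and 0 passed with limma, edgeR or DESeq2, where 1 had an unadjusted limma p under 0.05. Vegfb was at 37.9 ± 1.05 CPM in sgNDUFS4 and 38.5 ± 2.49 CPM in sgControl. Without sgNDUFS4 replicate 3, 1 of these genes was called higher. Of the other class III receptor tyrosine kinases and their ligands, Kit, Csf1 and Flt3l were tested. Kit, the receptor of stem cell factor in melanocytes, had 49.7, 50.3 and 44.1 CPM in sgNDUFS4, against 26.7, 25.2 and 22.6 CPM in sgControl, and rose by a log2 difference of 0.94 (limma adjusted p = 1.6e-10). Its ligand gene Kitl, named after its values were seen, was not tested, with 1.36, 1.76 and 1.00 CPM in sgNDUFS4, against 0.348, 0.254 and 0.0898 CPM in sgControl. Csf1, a macrophage growth factor gene, fell to 29.6 ± 1.41 CPM in sgNDUFS4, against 46.4 ± 4.27 CPM in sgControl (log2 difference -0.64, adjusted p = 7.4e-08). Flt3l was at 1.31 ± 0.514 CPM in sgNDUFS4 and 0.712 ± 0.415 CPM in sgControl and did not pass, but was called higher without sgControl replicate 2.

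**Figure D4:**
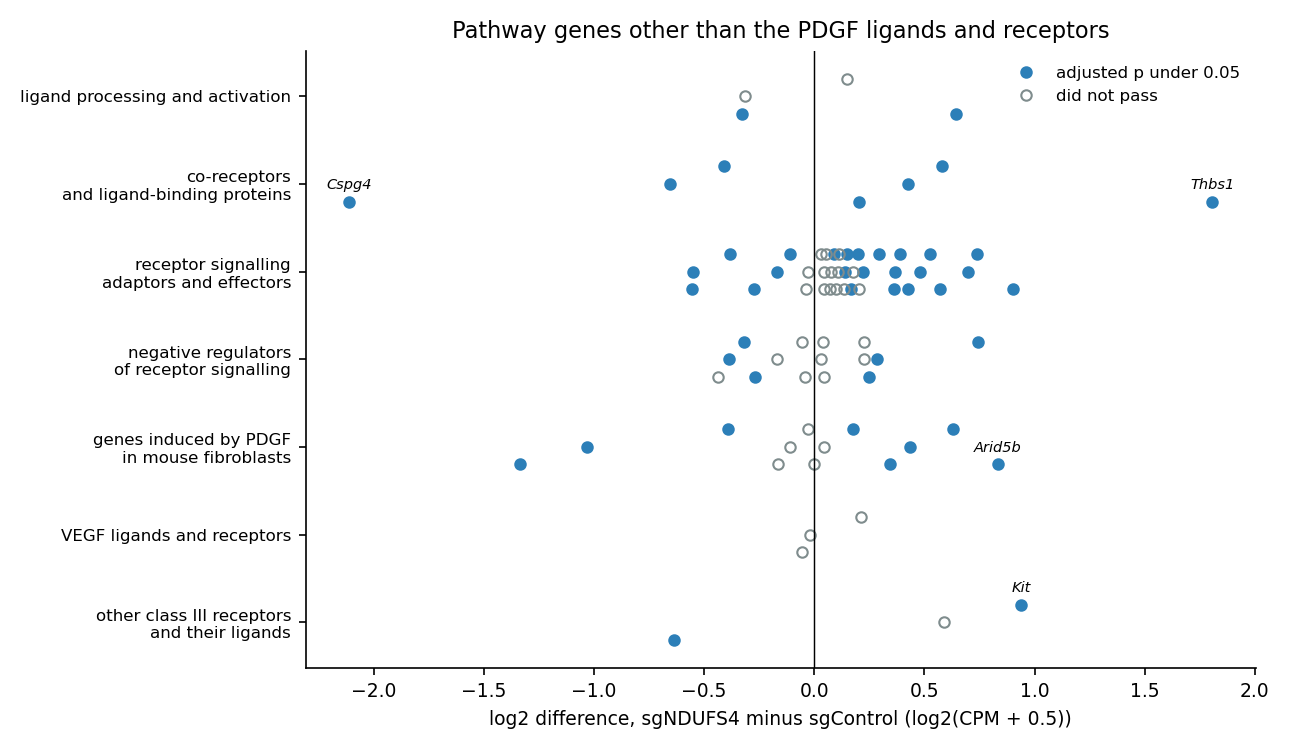
Log2 difference (log2(CPM + 0.5), sgNDUFS4 minus sgControl) of the tested pathway genes by list, without 2 that are not reported here; filled points passed limma at an adjusted p under 0.05 and open points did not, and vertical offsets within a row only separate points. Of the genes shown, Cspg4 and Thbs1 lie farthest from 0, Cspg4 on the lower side.

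Genes with the most similar pattern were ranked by the root mean square difference from each PDGF gene over the 6 libraries, on log2(CPM + 0.5) minus the sgControl mean. For Pdgfa they were Pigw, Paqr4 and Gspt2, at 0.059 to 0.072 log2 units. For Pdgfrb they were Fkbp14, Dock6 and Ccdc90b, all at about 0.039, and for Pdgfra Mccc2, Rab24 and Chkb, at 0.021 to 0.035. Pdgfc had no gene as close, and its nearest were Usp44 at 0.22, Dyrk4 at 0.22 and Tll1 at 0.33. Dyrk4 was at 1.08, 2.47 and 2.54 CPM in sgNDUFS4 and had no read in any sgControl library. With 52.0% of genes called between the same 2 groups, a similar pattern over 6 libraries is common, and the ranking is a description.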

How the data were processed

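The deposited table holds CPM, scaled by the authors to the reads counted in genes of each library. The submitters' processing notes name HISAT2 and GRCm38. For the counting tool, annotation and filters the sources used here give no name. Dividing a library's values by its lowest nonzero value gave read numbers, whole within a tolerance of 0.01 for 99.98% to 100% of values.

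The test was limma 3.58.1 (R 4.3.3) with a mean-variance trend on log2(CPM + 0.5), keeping genes whose mean over the 6 libraries was 1 CPM or more, two-sided, adjusted by Benjamini-Hochberg over 11063 genes at a threshold of 0.05. The test was first run on simulated data, whose spread was set and not estimated from these libraries. It recovered 48% of genes changed 1.25-fold, 86% at 1.5-fold, 94% at 2-fold and 100% at 4-fold. There were 4 false calls among 11026 genes. Only 50 genes were changed at each fold, whereas 52.0% of the tested genes were called in the libraries, so these rates may differ there. A gene that did not pass can still hold a small change. On the recovered reads, edgeR 4.0.16 called 2723 genes higher and 2860 lower, and DESeq2 1.42.0 called 2603 higher and 2767 lower. No library repeated another, as chi-square values per gene within groups were 3.53 to 5.29. Intervals and floors cover counting error only.

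The 6 genes, the lists and the tests were chosen with earlier results of these data known. The genes named in a pathway list were up to 4 called genes with the smallest p, groups that do not overlap and a higher-group mean of 5 CPM or more, plus the most abundant gene that did not pass. In marker lists they were the 3 most abundant. Exceptions are marked, and 2 list genes are counted but not reported here by name. Positions and exon lengths are from GENCODE M21 (GRCm38), matched by symbol for 22305 rows. Promoter windows are from RefSeq on GRCm38.p6, and entries for 4 of the 6 genes matched. Coordinates are 1-based.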

Additional observations from a re-analysis of the deposited data

How the results depend on the processing

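None of the log2 differences of the 6 genes changed direction with TMM scaling, neighbour centring, edgeR or DESeq2. The TMM factors were 0.976 to 1.03, and each neighbour median was smaller in size than its gene's difference. Neither of these 2 settings had room to reverse a direction. As the genes were chosen by these differences, nothing is read from the kept directions. Another pseudocount or a library left out could not change a direction, because the groups of each gene did not overlap. Another filter or variance model leaves the log2 difference of a kept gene as it is, so these settings say nothing about it. In the settings that alter them, the log2 differences of Pdgfa and Pdgfra moved by less than their replicate SD. A filter of 5 CPM left no value for Pdgfb, Pdgfc, Pdgfd and Pdgfra. The 3 low ligand genes depended on the scale. With pseudocounts of 0.1 and 1, Pdgfc was at 4.18 and 1.80, Pdgfd at 1.77 and 0.49 and Pdgfb at -1.60 and -0.37. On recovered reads, edgeR and DESeq2 gave 5.33 and 5.44 for Pdgfc, 2.15 and 2.20 for Pdgfd and -2.72 and -2.84 for Pdgfb. A smaller pseudocount enlarges differences of low values by construction. The edgeR and DESeq2 fits used the reads without the pseudocount of 0.5 CPM, and other contributions to their values were not tested. Neighbour centring, which subtracts the neighbour median, moved Pdgfb to -0.46 and Pdgfrb to 0.57. With the longest transcript as length, 2 of the 6 genes took another place in the order in sgNDUFS4 and 2 in sgControl. With a library left out, Pdgfc ranged from 2.33 to 2.72 and Pdgfb from -0.68 to -0.59.

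Among the pathway lists, 11 of 224 counts moved by more than 1.5 times, all of them counts of 5 or fewer. The labels state no pairing of libraries by replicate number. The correlations of same-numbered deviations were 0.056, 0.012 and 0.097. They were the highest for sgNDUFS4 replicates 1 and 3, whereas sgNDUFS4 replicate 2 correlated better with sgControl replicate 1. So few libraries cannot decide whether the replicate numbers pair them. With the replicate block 33 pathway genes were higher and 19 lower, and over all genes 3632 were higher and 2309 lower. Depth limits Pdgfb, Pdgfc and Pdgfd, which rest on 4 reads in sgNDUFS4, 4 in sgControl and 8 in sgControl.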
